A study of Mus musculus with 12 samples.

Results

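The enzymes and carriers of the urea cycle and of amino acid breakdown were followed in spontaneous mouse liver cancer. The list held 38 genes, taken by name from 9 pathways, and was drawn up with earlier results of these data known. Of these, 35 were measured by a probe set that named a single gene, out of 18193 genes in all, while Acmsd, Sdsl and Gcat were not measured here. Each gene was read from its brightest probe set, on the scale log2(intensity + 16) after quantile normalization, and all levels and differences below are on that log2 scale, which understates the change of dim genes. The 12 arrays held 6 hepatocellular carcinomas (HCC) and 6 normal livers of B6C3F1 mice, the first-generation hybrid of a C57BL/6 mother and a C3H father that is widely used in long-term toxicity tests. Both groups were 2 years old and untreated, and the tumours had arisen spontaneously. Strain and tissue were common to both groups, and the labels state no sex, allele or other agent for either. Each array was taken as a separate animal. No label states that the animals were independent, so that p-values measure the spread between these samples.

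The liver disposes of surplus amino acids by removing their nitrogen and burning or storing their carbon. Ammonia enters the urea cycle in the mitochondria, where Cps1 and Otc act, and leaves as urea through Ass1, Asl and Arg1 in the cytosol. Most of these enzymes are at their highest in hepatocytes around the portal vein, while glutamine synthetase (Glul), which captures the remaining ammonia, is confined to hepatocytes around the central vein. Tyrosine, tryptophan, histidine, methionine, lysine, proline, glycine and the branched-chain amino acids each have a chain of their own enzymes, many of them made mainly in liver.

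HCC was compared with normal liver for each gene with limma and Benjamini-Hochberg adjustment over all 18193 genes. Of the 35 genes 20 were lower in HCC, none was higher and 15 did not pass an adjusted p of 0.05. Over all genes 7.24% were called lower and 6.48% higher. The differences of the 20 that fell ran from -1.83 to -0.56, with adjusted p from 6.35e-05 to 0.0497. Of the other 15, Glud1 alone had a difference above 0, and 6 of the 15 had an unadjusted p under 0.05. Across all 35 genes the median difference was -0.86, against -0.04 over all genes. In 12 of the 35, or 34.3%, every tumour lay below every normal liver, which held for 4.5% of all genes. No member lay above all normal livers in every tumour, which held for 4.25% of all genes. Among the 4 tumours and 4 normal livers with Y-linked signal, described below, 5 of the 35 were called lower (Asl, Afmid, Hpd, Ahcy and Prodh), against 3.09% of all genes. Among the 2 and 2 without it 1 was called lower (Amdhd1), against 0.203% of all genes. With all 12 livers, 5 were lower at an adjusted p of 0.01, against 2.53% of all genes, and 13 by an exact rank test, against 6.07%. The rank test did not call Slc25a15, Tat, Kynu, Cbs, Cth, Prodh and Aass. In tissue RNA, fewer cells of a type and less RNA per cell cannot be told apart.

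**Figure D1:**
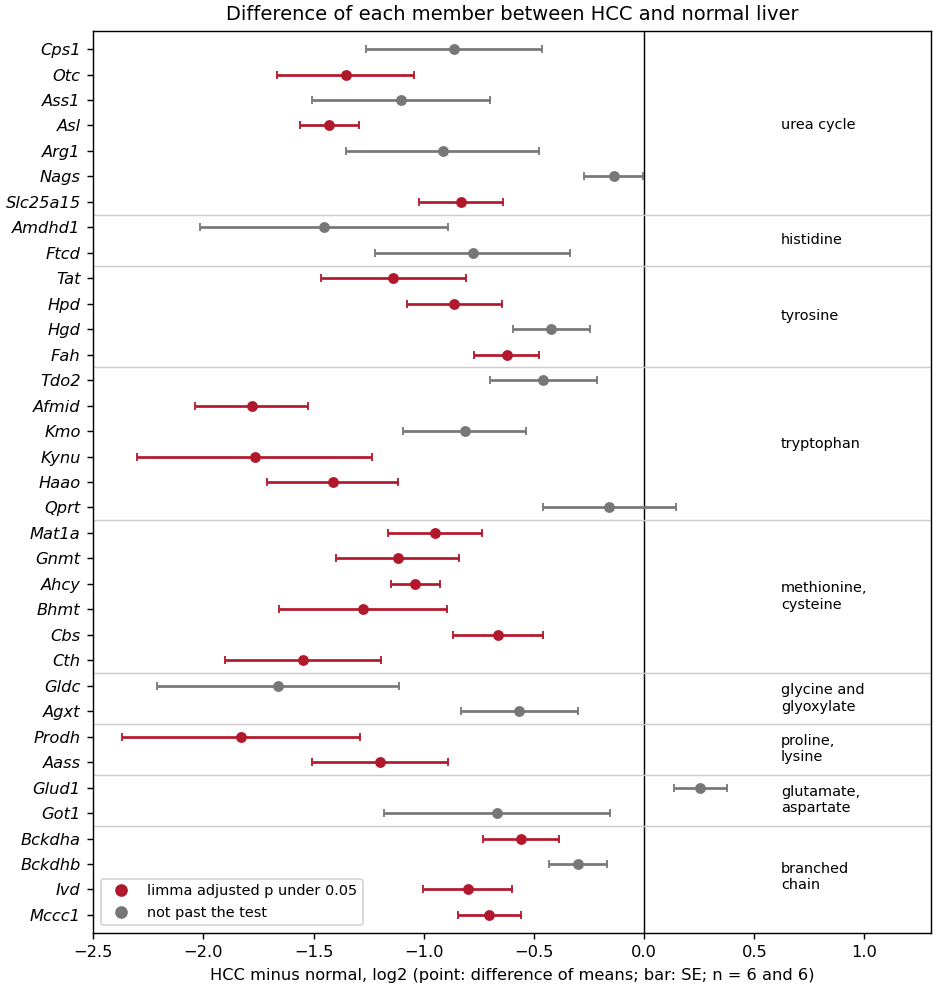
Difference of each of the 35 genes between HCC and normal liver on the log2 scale, by pathway. Points are differences of the means of 6 and 6 arrays and bars are standard errors, with the 20 genes past the test in red. All points but that of Glud1 (0.26) lie left of 0, and Prodh (-1.83) lies farthest left.

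Among the genes that fell with no overlap between the groups, the largest differences with an entry in the RefSeq promoter table were those of Afmid, Haao, Otc and Bhmt. Their promoters, 250 bases before to 50 after the start of the gene in GRCm38.p6, are shown because every tumour was below every normal liver for these genes. The letters in capitals mark the matches of 5 motifs searched on both strands: CAAAGTC for HNF4, GTTAAT for part of an HNF1 site, TTGCNNAA for C/EBP, TGACGTCA for the cAMP response element (CRE) and TGACG for the short CRE, which lies within the full one.
Afmid, chr11:117825669-117825968, plus strand: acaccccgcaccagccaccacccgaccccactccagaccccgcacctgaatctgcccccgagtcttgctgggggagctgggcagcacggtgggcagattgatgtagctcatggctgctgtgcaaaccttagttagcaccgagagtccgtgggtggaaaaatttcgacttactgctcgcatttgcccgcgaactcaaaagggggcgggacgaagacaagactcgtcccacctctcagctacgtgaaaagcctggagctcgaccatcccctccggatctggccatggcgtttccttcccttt
Haao, chr17:83846741-83847040, minus strand: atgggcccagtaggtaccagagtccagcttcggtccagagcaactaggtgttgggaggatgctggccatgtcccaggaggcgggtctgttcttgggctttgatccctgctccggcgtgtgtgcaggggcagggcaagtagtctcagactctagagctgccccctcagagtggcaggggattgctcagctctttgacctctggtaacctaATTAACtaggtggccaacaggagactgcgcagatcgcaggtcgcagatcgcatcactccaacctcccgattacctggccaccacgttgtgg
Otc, chrX:10252055-10252354, plus strand: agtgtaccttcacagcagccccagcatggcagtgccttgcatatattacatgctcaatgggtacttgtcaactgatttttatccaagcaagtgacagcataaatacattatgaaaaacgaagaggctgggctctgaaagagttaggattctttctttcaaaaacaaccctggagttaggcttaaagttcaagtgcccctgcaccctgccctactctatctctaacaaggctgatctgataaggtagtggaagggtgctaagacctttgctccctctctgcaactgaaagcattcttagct
Bhmt, chr13:93637709-93638008, minus strand: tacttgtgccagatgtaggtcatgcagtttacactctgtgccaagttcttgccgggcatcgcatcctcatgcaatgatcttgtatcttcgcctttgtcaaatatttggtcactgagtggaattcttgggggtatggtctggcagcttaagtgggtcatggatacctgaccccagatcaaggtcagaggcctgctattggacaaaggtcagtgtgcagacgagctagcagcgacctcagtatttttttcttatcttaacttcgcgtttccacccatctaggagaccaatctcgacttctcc
Of these 4 promoters only that of Haao held a match, ATTAAC, the HNF1 letters on the other strand, which began at base 210 of the 300. The table held 33 promoters of 31 of the 38 genes. The HNF4 letters were in 1 of the 33 (Kmo) against 4.44% of all 32851 promoters, and the HNF1 letters were in 3 (Haao, Ftcd and Bckdhb) against 7.1%. The C/EBP letters were in 2 (Aass and Hgd) against 10.8%, and the short CRE was in 5 (Aass, Acmsd, Ftcd, Gcat and Nags) against 20.8%. The full CRE was in 0 of the 33 against 1.79%. Matches are counts of letters in these windows and were not tested.

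All 7 genes of the urea cycle were measured, of which 3 fell and 4 did not pass the test. Asl, which splits argininosuccinate into arginine and fumarate, fell in every tumour by nearly the same amount. Its levels in HCC 1 to HCC 6 were 12.03, 12.36, 12.10, 11.94, 12.39 and 12.14, against a lowest, median and highest normal liver of 13.31, 13.65 and 13.81. Every tumour was thus below every normal liver, by a difference of -1.43 ± 0.14 (SE, n = 6 each, limma adjusted p = 6.35e-05), or 2.69-fold. Otc joins carbamoyl phosphate to ornithine. It was at 12.38, 13.89, 13.85, 12.53, 13.88 and 12.31 in the same order of tumours, and between 14.36 and 14.65 in normal livers with a median of 14.47. The groups did not overlap, and Otc fell by 1.35 ± 0.31 (adjusted p = 0.0131), with HCC 1, HCC 4 and HCC 6 lowest. Slc25a15, which carries ornithine into the mitochondrion, fell by 0.83 ± 0.19 (adjusted p = 0.013). Its tumour levels were 12.65, 13.01, 12.88, 12.64, 13.74 and 12.72, and HCC 5 alone reached into the normal range of 13.55 to 13.96.

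The entry and exit enzymes of the cycle behaved differently from tumour to tumour. Cps1, which makes carbamoyl phosphate from ammonia, varied little among normal livers, from 15.22 to 15.34 with a median of 15.31. In HCC 1 to HCC 6 it was at 12.65, 14.72, 15.35, 13.66, 15.37 and 14.84. HCC 1 and HCC 4 were far below normal, while HCC 3 and HCC 5 were just above its upper end. The group difference of -0.86 ± 0.40 did not pass (adjusted p = 0.177). Arginase 1 (Arg1), which releases urea, was likewise lowest in HCC 1 and HCC 4, at 12.56, 14.98, 15.28, 13.04, 15.26 and 14.41 against 15.09 to 15.23 with a median of 15.18 in normal livers. Its difference was -0.91 ± 0.44 (adjusted p = 0.193). The SDs of Cps1 and Arg1 were 1.07 and 1.18 among the tumours and 0.05 in normal livers. Ass1, which forms argininosuccinate, lay between 7.38 and 10.04 in the tumours and between 9.57 and 10.49 in normal livers (-1.10 ± 0.40, adjusted p = 0.0897). It was read here from a dim probe set, since the other probe set for Ass1 also names Gm5424 and was not used. Nags makes the obligatory activator of Cps1, and its difference was -0.14 ± 0.13 (adjusted p = 0.548), with tumours from 10.51 to 11.08 and normal livers from 10.76 to 11.19.

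**Figure D2:**
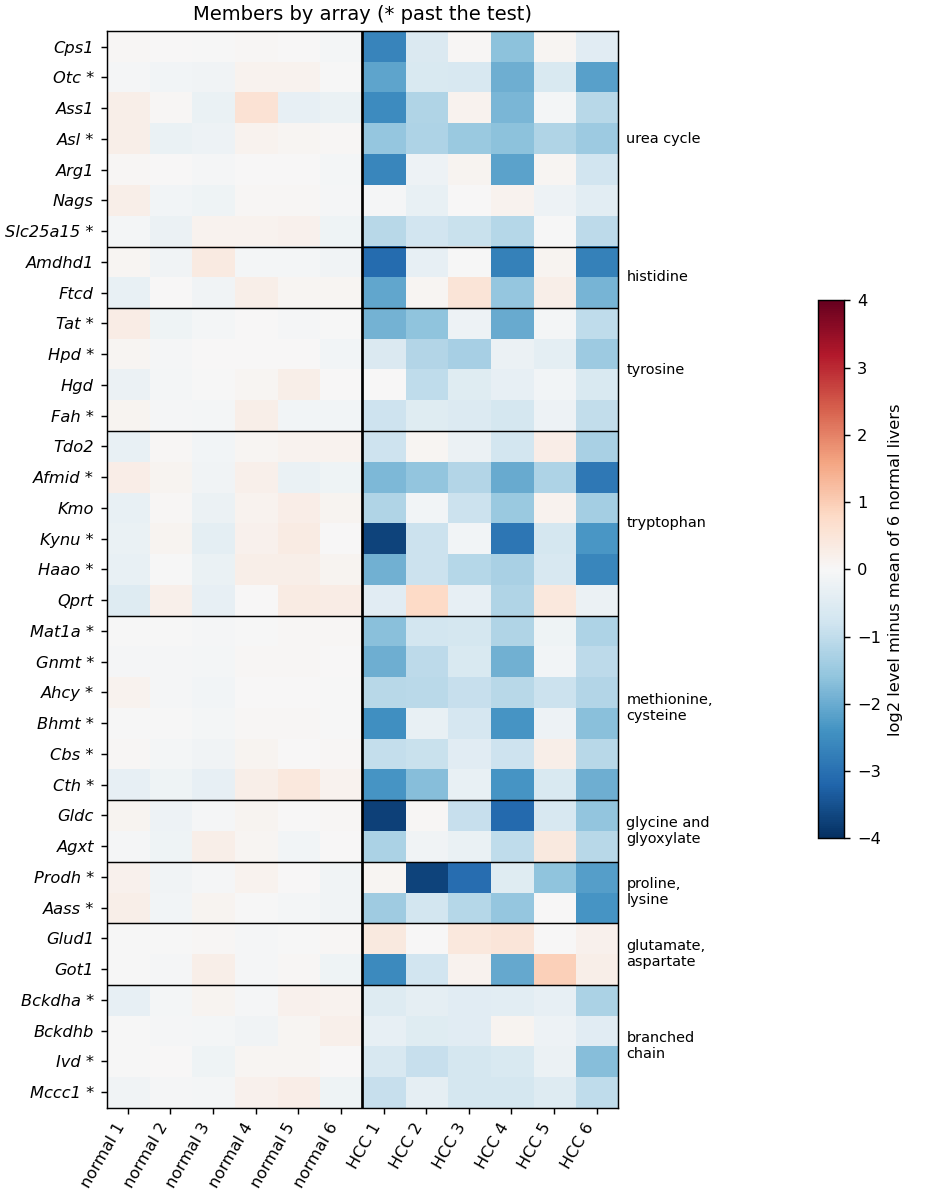
Level of each of the 35 genes on each of the 12 arrays, as the log2 difference from the mean of the 6 normal livers (blue lower, red higher), grouped by pathway; stars mark the 20 genes past the test. Asl, Afmid and Ahcy are blue in all 6 tumours, whereas Cps1, Arg1, Got1 and Gldc are darkest in HCC 1 and HCC 4, and Prodh is darkest in HCC 2 and HCC 3.

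Neither of the 2 genes of histidine breakdown passed the test, and both divided the tumours sharply. Imidazolonepropionase (Amdhd1) was at 9.73, 12.47, 12.78, 10.12, 12.93 and 10.11 in HCC 1 to HCC 6 and between 12.65 and 13.16 in normal livers, with a median of 12.73. HCC 1, HCC 4 and HCC 6 were far below the normal range, HCC 2 was just under it, and HCC 3 and HCC 5 were inside it. The difference was -1.45 ± 0.56 (adjusted p = 0.108). Ftcd, which passes the last carbon of the histidine ring to folate, was at 11.46, 13.61, 14.06, 11.98, 13.77 and 11.66, against 13.23 to 13.77 with a median of 13.59 in normal livers. The same 3 tumours were low and HCC 3 was above all normal livers (-0.78 ± 0.44, adjusted p = 0.276).

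In tyrosine breakdown 3 of 4 genes fell. Tyrosine aminotransferase (Tat), the rate-limiting entry step, was at 12.35, 12.63, 14.04, 12.23, 14.18 and 13.23, against 14.08 to 14.55 with a median of 14.22 in normal livers. HCC 5 lay inside the normal range and HCC 3 just under it, and the difference was -1.14 ± 0.33 (adjusted p = 0.0369). The call did not hold when any normal liver or any of HCC 1, HCC 2, HCC 4 and HCC 6 was left out (adjusted p reaching 0.0719), nor by an exact rank test. The next enzyme, Hpd, had another order of tumours, at 14.86, 14.26, 14.10, 15.22, 15.05 and 13.97, all below the normal range of 15.33 to 15.51 (median 15.46). It fell by 0.86 ± 0.22 (adjusted p = 0.0194), and HCC 4, which was lowest for Tat, was highest for Hpd. Fah, which completes the pathway, was at 13.85, 14.20, 14.14, 13.99, 14.49 and 13.71 and fell by 0.62 ± 0.15 (adjusted p = 0.0147) from normal levels of 14.56 to 14.91 (median 14.63), with no overlap. Homogentisate dioxygenase (Hgd) did not pass (-0.42 ± 0.18, adjusted p = 0.133). It was at 14.34, 13.29, 13.84, 13.99, 14.22 and 13.72 against 14.09 to 14.55 in normal livers (median 14.31), so that HCC 1 and HCC 5 were inside the normal range.

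Of 6 measured genes that turn tryptophan through kynurenine into nicotinamide precursors, 3 fell. Afmid, the arylformamidase that forms kynurenine, had one of the largest falls of all 35 genes, by 1.78 ± 0.26 (adjusted p = 0.000933), or 3.44-fold. Differences over its 4 probe sets ran from -1.78 for the brightest, used here, to -0.22 for the dimmest. Afmid levels in the tumours were 10.07, 10.28, 10.69, 9.87, 10.63 and 9.02, all well below the normal range of 11.63 to 12.16 (median 11.85), with HCC 6 lowest. Haao, which opens the 3-hydroxyanthranilate ring, was at 11.49, 12.57, 12.28, 12.11, 12.79 and 10.82 against 13.14 to 13.67 (median 13.47) in normal livers. It fell by 1.41 ± 0.30 (adjusted p = 0.00808) without overlap, again with HCC 6 lowest. Kynureninase (Kynu) was at 8.42, 11.25, 12.01, 9.21, 11.39 and 9.77 against 11.73 to 12.44 (median 12.17), and only HCC 3 was in the normal range. Its fall of -1.77 ± 0.53 (adjusted p = 0.0446) no longer passed when any normal liver or HCC 1, HCC 4 or HCC 6 was left out (adjusted p reaching 0.0907). Nor did it pass with a pseudocount of 1 (adjusted p = 0.0563), trended and robust eBayes (0.0543), an exact rank test (0.0576) or the mean of all its probe sets (-1.20, adjusted p = 0.136).

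The other 3 genes of the tryptophan chain did not pass. Tdo2, which opens the indole ring at the start, did not pass (-0.46 ± 0.24, adjusted p = 0.244), with tumours from 13.73 to 15.28 and normal livers from 14.71 to 15.16. Kynurenine monooxygenase (Kmo) was at 11.42, 12.52, 11.78, 11.13, 12.78 and 11.26 against 12.33 to 12.91 (median 12.70) in normal livers, so that HCC 2 and HCC 5 were in the normal range (-0.81 ± 0.28, adjusted p = 0.0724). Qprt, the last step toward nicotinate mononucleotide, was at 11.71, 12.95, 11.83, 10.93, 12.58 and 11.92 against 11.62 to 12.47 (median 12.26). HCC 2 and HCC 5 were above and HCC 4 below all normal livers, and the group difference was -0.16 ± 0.30 (adjusted p = 0.782). A second Qprt probe set, nearly as bright (mean level 11.91 against 12.07), had a difference of -0.44.

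All 6 genes of methionine and cysteine metabolism fell. Ahcy, which hydrolyses S-adenosylhomocysteine, was the most even of them, at 14.07, 14.08, 14.26, 14.06, 14.33 and 14.00 against 15.06 to 15.32 (median 15.16) in normal livers. No tumour came near the normal range, and the fall was 2.05-fold (-1.04 ± 0.11, adjusted p = 0.000122). Gnmt, which methylates glycine to use up surplus S-adenosylmethionine, was at 13.27, 14.18, 14.62, 13.32, 15.12 and 14.20 against 15.17 to 15.29 (median 15.23). It fell by 1.12 ± 0.28 (adjusted p = 0.0193), with HCC 5 just under the lowest normal liver. Bhmt, which remakes methionine from homocysteine and betaine, was at 13.36, 15.52, 15.15, 13.47, 15.62 and 14.16 against 15.73 to 15.88 (median 15.81). The groups did not overlap, and it fell by 1.28 ± 0.38 (adjusted p = 0.0438). It no longer passed when any normal liver or HCC 1, HCC 4 or HCC 6 was left out (adjusted p reaching 0.0879), nor with the deposited scaling (0.0672), median centring (0.0511) or a pseudocount of 1 (0.0541). Cystathionine gamma-lyase (Cth), which releases cysteine, was at 12.25, 12.91, 14.31, 12.26, 14.01 and 12.67 against 14.29 to 15.02 (median 14.61) and fell by 1.55 ± 0.35 (adjusted p = 0.013). HCC 3 alone reached the normal range. Mat1a, the liver form of the enzyme that makes S-adenosylmethionine, fell by 0.95 ± 0.21 (adjusted p = 0.0116), with tumours from 13.26 to 14.76 below normal livers from 14.87 to 14.98. Cystathionine beta-synthase (Cbs) was at 11.87 to 13.20 in the tumours and 12.83 to 13.08 in normal livers, with HCC 5 the only tumour not below them. Its fall of -0.66 ± 0.20 was at the threshold (adjusted p = 0.0496), and it passed on leaving out HCC 5 but none of the other 11 arrays (adjusted p reaching 0.0981). Nor did it pass with a pseudocount of 1 (adjusted p = 0.058), with Y-linked signal as a covariate (0.0515) or by an exact rank test (0.208).

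**Figure D3:**
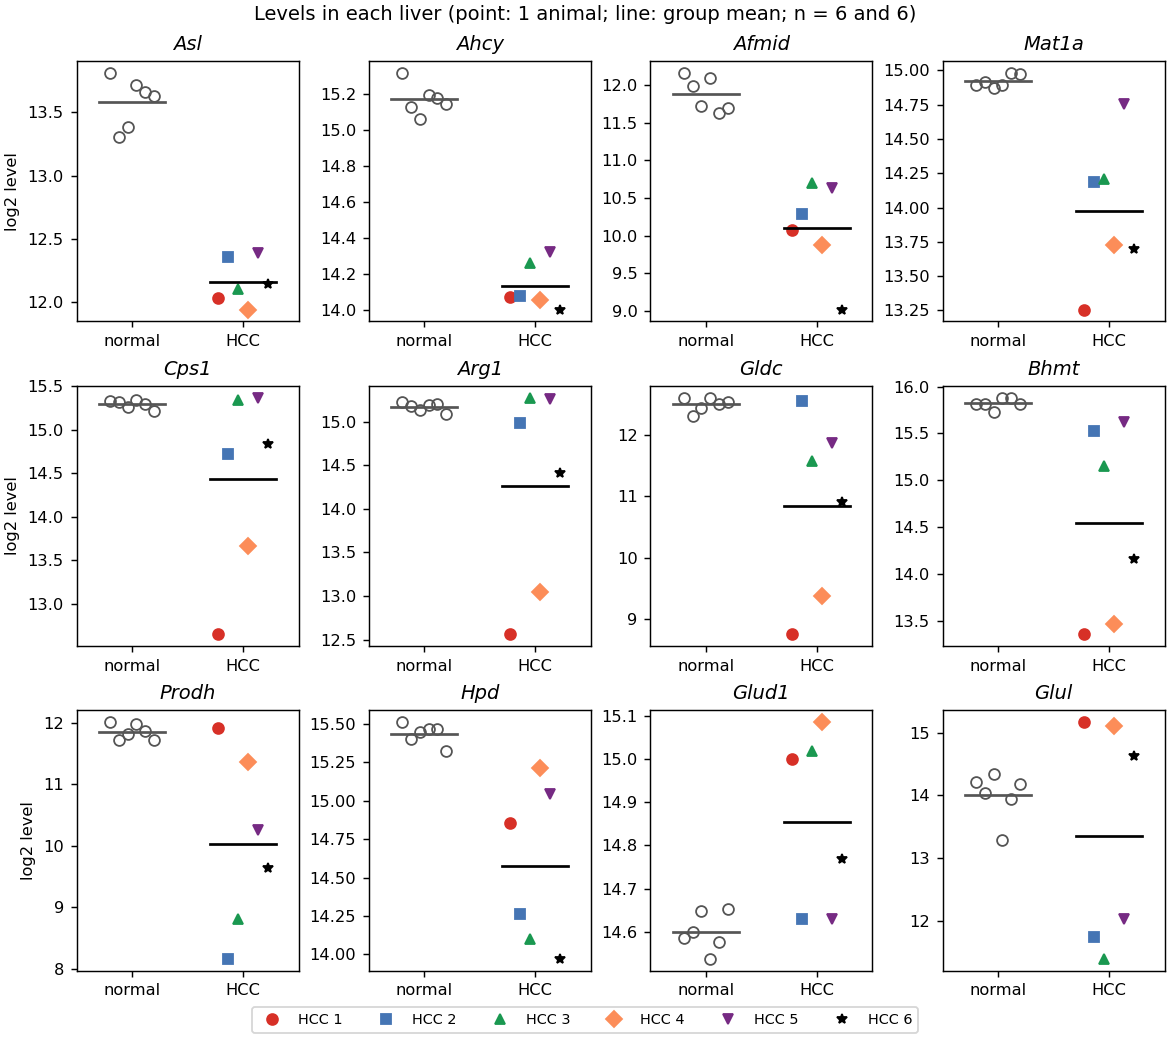
Log2 level of 12 genes in each liver, with normal livers as open circles, each tumour by its own symbol and lines at the group means; every panel has its own axis, which does not start at 0. Asl, Ahcy, Afmid and Mat1a lie below normal in all 6 tumours, Cps1, Arg1, Gldc and Bhmt are lowest in HCC 1 and HCC 4, and Prodh and Glul are highest in the same 2 tumours.

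Neither of the 2 measured genes of glycine and glyoxylate handling passed. Gldc, the decarboxylase of the glycine cleavage system, ranged most widely, at 8.75, 12.56, 11.57, 9.38, 11.86 and 10.91 against 12.30 to 12.61 (median 12.52) in normal livers. HCC 1 and HCC 4 were more than 3 log2 units below the normal mean, by -3.75 and -3.12, while HCC 2 was inside the normal range (-1.66 ± 0.55, adjusted p = 0.0636). Agxt, the peroxisomal aminotransferase that detoxifies glyoxylate, was at 12.36, 13.48, 13.37, 12.61, 14.03 and 12.54 against 13.46 to 13.87 (median 13.62). HCC 5 was above all normal livers and 4 tumours were below them (-0.57 ± 0.26, adjusted p = 0.179).

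Both genes of proline and lysine breakdown fell. Proline dehydrogenase (Prodh) had the largest difference of the 35 genes, -1.83 ± 0.54 (adjusted p = 0.0405), and an order of tumours unlike that of most others. It was at 11.92, 8.16, 8.80, 11.36, 10.26 and 9.64 in HCC 1 to HCC 6 and between 11.72 and 12.02 (median 11.84) in normal livers. HCC 1 was thus inside the normal range and HCC 4 just below it, whereas HCC 2 and HCC 3 stood at -3.69 and -3.05 from the normal mean. It no longer passed when any normal liver or any of HCC 2, HCC 3, HCC 5 and HCC 6 was left out (adjusted p reaching 0.0806), nor with a pseudocount of 1 (0.0513) or by an exact rank test (0.117). Aass, which starts lysine breakdown, was at 11.91, 12.60, 12.21, 11.80, 13.34 and 10.98 against 13.21 to 13.57 (median 13.30) and fell by 1.20 ± 0.31 (adjusted p = 0.0223). Only HCC 5 was in the normal range.

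The enzymes that link amino acids to the citric acid cycle did not pass. Glutamate dehydrogenase (Glud1), which frees ammonia from glutamate, was at 15.00, 14.63, 15.02, 15.09, 14.63 and 14.77 against 14.54 to 14.65 (median 14.59) in normal livers. In 4 tumours it was above all normal livers and in HCC 2 and HCC 5 it was among them (0.26 ± 0.12, adjusted p = 0.187). A second Glud1 probe set, nearly as bright (mean level 14.67 against 14.73), had a difference of 0.09. Aspartate aminotransferase (Got1), whose product feeds nitrogen into the urea cycle, was at 10.46, 12.22, 13.14, 10.94, 13.95 and 13.23 against 12.82 to 13.22 (median 12.96). HCC 1 and HCC 4 were the lowest and HCC 5 and HCC 6 were above all normal livers (-0.67 ± 0.51, adjusted p = 0.434). Its sign turned when only arrays with Y-linked signal were compared (0.19, adjusted p = 0.767).

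In the breakdown of branched-chain amino acids 3 of 4 genes fell, all by less than 1 on the log2 scale. Isovaleryl-CoA dehydrogenase (Ivd), of the leucine branch, was at 11.07, 10.79, 11.02, 11.10, 11.47 and 10.02 against 11.56 to 11.79 (median 11.74) and fell by 0.80 ± 0.20 (adjusted p = 0.0208). Mccc1, the biotin-carrying subunit of the next enzyme, was at 10.49, 11.04, 10.71, 10.69, 10.87 and 10.38 against 11.24 to 11.65 (median 11.34) and fell by 0.70 ± 0.14 (adjusted p = 0.00689). Neither gene had a tumour in the normal range. Bckdha and Bckdhb are the paired subunits of the branched-chain keto acid dehydrogenase. Bckdha was at 11.15, 11.29, 11.22, 11.23, 11.34 and 10.40 against 11.34 to 11.85 (median 11.70), a fall of -0.56 ± 0.17 at the threshold (adjusted p = 0.0497) that passed on leaving out normal 1 or HCC 5 but none of the other 10 arrays (adjusted p reaching 0.101). It did not pass with a pseudocount of 1 (adjusted p = 0.057) or Y-linked signal as a covariate (0.0584). Nor did it pass when genes were read from the mean of their probe sets (0.0512), although Bckdha itself has only 1 probe set. Bckdhb did not pass (-0.30 ± 0.13, adjusted p = 0.16), although 5 tumours, at 12.35 to 12.66, were below normal livers at 12.72 to 13.04 (median 12.81), with HCC 4 at 12.96.

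Tumour by tumour, the share of the 35 genes below all 6 normal livers ran from 51.4% to 91.4%. It was 30 of 35 (85.7%) in HCC 1, where 24.1% of all genes lay below all normal livers, and 28 (80%) in HCC 2, against 21.8%. HCC 3 had 23 (65.7%, against 25.6%) and HCC 4 had 32 (91.4%, against 26.4%). HCC 5 had 18 (51.4%, against 24.3%) and HCC 6 had 32 (91.4%, against 30%). The median difference of the 35 genes from the normal mean was -1.43, -0.74, -0.48, -1.31, -0.16 and -1.22 in the order HCC 1 to HCC 6. By pathway, the urea cycle medians in that order were -2.11, -0.61, 0.01, -1.65, -0.08 and -1.05. In HCC 3 and HCC 5 this median lay between members that went different ways, with Asl at -1.48 and -1.20 and Otc at -0.64 and -0.61, both below all normal livers, and Cps1 just above them. The methionine and cysteine median was below 0 in all 6, from -1.81 in HCC 1 to -0.18 in HCC 5.

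**Figure D4:**
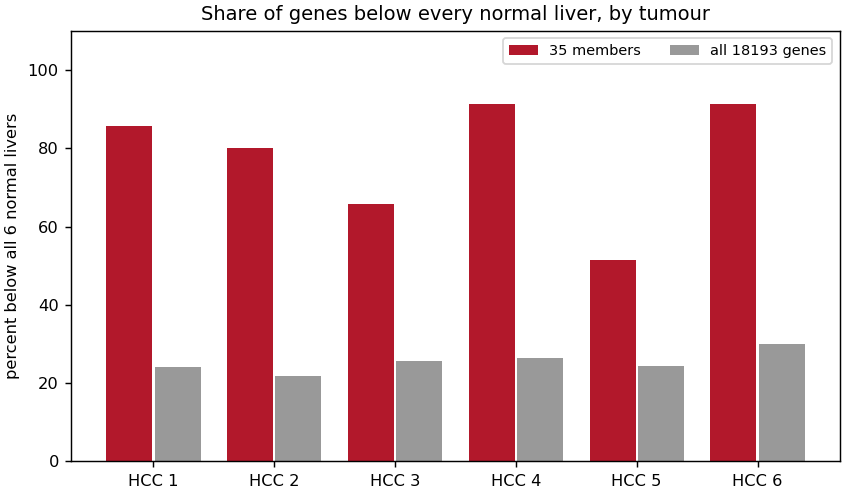
Percent of the 35 genes (red) and of all 18193 genes (grey) that lay below all 6 normal livers, for each tumour. The red bars run from 51.4% in HCC 5 to 91.4% in HCC 4 and HCC 6, and the grey bars from 21.8% to 30%.

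The genes spread more among the tumours than among the normal livers in 34 of 35 cases, against 64.7% of all genes. Their median SD was 0.69 in HCC and 0.15 in normal liver, and over all genes it was 0.45 and 0.34. Asl was the exception, with 0.18 and 0.20. All 35 genes had mean levels above that of the median gene (7.71), and the SDs were not compared with those of genes at matched levels. The level of the brightest signals is set mainly by rank after quantile normalization. HCC 1, HCC 4 and HCC 6 were the 3 lowest tumours in 19 of the 35 genes, against 8.89% of all genes, a pattern chosen after the values were seen. HCC 5 was the highest tumour in 19, against 15.4% of all genes. HCC 1 and HCC 4 were the 2 highest tumours for Prodh alone among the 35, against 9.99% of all genes. Leaving out HCC 5 brought Ass1, Amdhd1, Kmo and Agxt past the test (adjusted p of 0.0476, 0.0494, 0.0183 and 0.0393). Leaving out HCC 2 did so for Kmo and Gldc (adjusted p of 0.0364 and 0.0207), and leaving out HCC 3 for Ass1 (adjusted p = 0.035).

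Glul, the perivenous counterpart of the urea cycle in ammonia disposal, was on both sides of normal. In the order HCC 1 to HCC 6 it was at 15.17, 11.75, 11.40, 15.10, 12.03 and 14.62, with normal livers from 13.29 to 14.33. HCC 1, HCC 4 and HCC 6 were above all normal livers and the other tumours below them. Ornithine aminotransferase (Oat), also perivenous, divided them alike, at 15.27, 9.87, 10.36, 15.15, 11.18 and 15.10 against 13.94 to 14.48. Histidine ammonia-lyase (Hal), the periportal enzyme upstream of Amdhd1, was at 8.79, 12.83, 13.06, 8.37, 13.99 and 10.82 against 13.01 to 13.54, lowest in the 3 tumours that were high in Glul. None of the 3 passed as a group difference (adjusted p of 0.577 for Glul, 0.362 for Oat and 0.169 for Hal). The relation of these levels to those of the 35 genes was not tested.

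HCC 1, HCC 4, normal 1 and normal 3 were also the only arrays without Y-linked signal (mean of Eif2s3y, Kdm5d and Uty at 4.17 to 4.85, and at 8.96 to 9.77 on the other 8). A limma interaction therefore asked whether the difference between HCC and normal liver depended on that signal. It called 0 of the 35 genes and 0.154% of all genes at an adjusted p under 0.05. Of the 35, 11 had an unadjusted p under 0.05, and the share of all genes at that unadjusted threshold was not counted. Arg1 came closest, at -0.18 with the signal and -2.38 without it (interaction 2.19, adjusted p = 0.0529). Cps1 was at -0.22 and -2.14 (adjusted p = 0.126), Gldc at -0.76 and -3.46 (adjusted p = 0.0989), and Prodh, in the other direction, at -2.61 and -0.27 (adjusted p = 0.294). Without HCC 6 the interaction called 7 of the genes (Otc, Arg1, Amdhd1, Ftcd, Kynu, Bhmt and Gldc), against 0.786% of all genes, and without HCC 2 it called Got1, against 0.236%. HCC 6 was the only tumour with both Y-linked signal and a Glul level above all normal livers. No tumour low in Glul lacked the signal. The interaction over all 12 arrays therefore rests on HCC 6 alone to separate the signal from the Glul level. With HCC 6 left out, the tumours without the signal were the same 2 as those high in Glul, so that these conditions cannot be told apart there.

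Other enzymes of the same pathways, from a list drawn up alongside, were also mostly lower, with 55 of 60 measured below 0. Of the 60, 27 fell, 1 rose and 32 did not pass, against 7.24% of all genes called lower and 6.48% called higher. The median difference of the 60 was -0.76, against -0.04 over all genes. The share of all genes with a difference below 0 was not counted. The gene that rose was asparagine synthetase (Asns, 2.52 ± 0.45, adjusted p = 0.00329), which makes rather than breaks down an amino acid. The largest falls were those of Ido2, a dioxygenase related in action to Tdo2 (-2.05), the choline and glycine pathway enzyme Dmgdh (-1.91), the kynurenine aminotransferase Aadat (-1.83) and serine racemase Srr (-1.65, and -1.72 to -0.03 over its 6 probe sets). In each of these 4 all tumours lay below all normal livers, with adjusted p from 0.000128 to 0.00719. Of 11 measured genes for isoenzymes and other uses of the same amino acids, Sat1, of polyamine turnover, rose by 0.90, and the pyrimidine synthesis genes Umps and Dhodh fell by 0.55 and 0.52. The second arginase, Arg2, did not pass (1.85 ± 0.92, adjusted p = 0.208), with HCC 6 at 11.55 and the other tumours from 4.77 to 8.46. Mat2a and the serine dehydratase Sds were not measured here.

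Of 19 amino acid transporters, the neutral amino acid carrier Slc1a4 rose by 2.04 ± 0.48 (adjusted p = 0.0149), and Slc6a12 and Slc38a4 fell by 1.23 and 0.89. These counts of 2 lower and 1 higher are near the shares over all genes, 7.24% lower and 6.48% higher. Of 13 measured regulators of amino acid catabolism 2 fell and none rose, against the same shares over all genes. They were the bile acid receptor Nr1h4 (-1.54 ± 0.31, adjusted p = 0.00629) and Cebpa, a transcription factor that drives several urea cycle genes (-0.71 ± 0.16, adjusted p = 0.0129), both below all normal livers in every tumour. Hnf4a (0.09), the glucagon receptor Gcgr (-0.24) and Klf15 (-0.59) did not pass.

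The tissue label was checked against markers. None of 7 measured hepatocyte markers passed, with differences from -0.04 to 0.09, and their summed level was 18.27 to 18.31 in normal livers and 18.27 to 18.35 in HCC. Albumin was at 15.29 to 15.57 in normal livers and 15.39 to 15.60 in HCC. Several of these markers are among the brightest signals, whose level is set mainly by rank after quantile normalization. Markers of other cells moved in both directions. Among 6 stellate cell and fibroblast markers Col1a1 rose (3.27) and Lrat and Dcn fell (-2.52 and -2.07), and the summed level was 12.65 to 13.30 in normal livers and 10.58 to 15.82 in HCC. HCC 6 was the highest tumour for all 6, although its Lrat (8.44) was still below all normal livers. Its Col1a1 and Col3a1 were at 13.70 and 14.72, with the other tumours from 6.62 to 9.29 and from 9.09 to 11.64. Among 6 endothelial markers Clec4g and Stab2 fell (-2.13 and -1.11), with summed levels of 11.97 to 12.74 and 10.63 to 12.28. Among 6 myeloid markers Clec4f of Kupffer cells fell (-2.36), with summed levels of 12.39 to 13.44 and 11.90 to 14.76. Except for Clec4f (7.92, below all normal livers), HCC 6 was the highest tumour for these markers too. Its Cd68 was at 12.18, with the other tumours from 8.37 to 10.27. No gene passed among 4 measured lymphocyte, 4 cholangiocyte and 4 pancreatic acinar markers. Of 5 measured markers of periportal hepatocytes Cyp2f2 fell (-4.50) and Cdh1 rose (4.68), with summed levels of 15.72 to 16.01 in normal livers and 13.33 to 16.25 in HCC. None of 9 pericentral markers passed, with summed levels of 16.60 to 16.79 and 13.78 to 17.62. The part of any of these cells in the falls of the 35 genes was not tested.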

How the data were processed

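RNA of 6 HCC and 6 normal livers was measured on 12 single-colour arrays. Per the labels' protocols, RNA was extracted with TRIzol and a DNase-treated column and amplified by one-cycle cDNA synthesis with biotin label. The deposited intensity values were linear, from 0.104 to 82665.9 for 45101 probe sets, with a trimmed mean of 500.0 on every array (2% off each end); how probes were summarised was not given in the sources used here. Depth cannot be stated for arrays, and the number of arrays limits the precision.

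Array medians differed (92.4 to 114), so log2(intensity + 16) was quantile normalized over all probe sets. The 64 control probe sets were then dropped. Of the others 34945 named 1 gene, 932 several and 9160 none, by an annotation updated by gene ID to GRCm38.p6. Each of 18193 genes was read from its brightest probe set. limma (version 3.58.1, lmFit and eBayes, R 4.3.3) compared the groups without covariates, two-sided, with Benjamini-Hochberg adjustment over all genes and a threshold of 0.05, and was tested on simulated data. Figures used Python 3.11.15 and matplotlib 3.10.9.

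The genes, lists and rules were chosen with earlier results of these data known. Tumour levels and the lowest, median and highest normal liver are given for up to 4 genes a pathway past the test and up to 2 not past it with the largest tumour SD, and ranges for the rest. Of the other lists, up to 5 genes past the test with the largest differences are named, and Glul, Mat2a, Sds, Hal and Oat always. Same-number arrays of the groups had correlations of deviations from -0.0147 to 0.0778 and were not taken as pairs. Alternatives were other pseudocounts, scalings, probe set rules, filters, variance models, array sets, thresholds and a rank test.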

Additional observations from a re-analysis of the deposited data

Results flagged for a closer look

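In 2 of 70 groups of 6 values, 1 animal stood apart from the other 5 by Dixon's criterion, which chance alone meets in about 1 group in 20. Slc25a15 was highest in HCC 5, at 13.74, with the next tumour at 13.01 and the lowest at 12.64. Bckdha was lowest in HCC 6, at 10.40, with the other tumours between 11.15 and 11.34. No technical or biological reason for either value was tested.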

How the results depend on the processing

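The count of 20 genes lower and 0 higher in HCC kept its size, within 1.5 times, under 10 of 14 other settings, at 14 to 22 lower, and no setting called any gene higher. It was 5 at an adjusted p threshold of 0.01 (Asl, Afmid, Haao, Ahcy and Mccc1) and 13 by an exact rank test. It was 5 in the comparison of 4 tumours with 4 normal livers that had Y-linked signal. It was 1 in that of the 2 and 2 without it (Amdhd1, not among the 20), and both of these hold fewer arrays. Of genes not past the test, Gldc passed under 5 and Kmo under 4 of the 14 settings. Hgd passed with the mean of all its probe sets and Bckdhb with median centring. Leaving out single arrays gave 14 to 23, highest without HCC 5. With the replicate number as a block the count was 14, and Tat, Fah, Kynu, Bhmt, Cbs and Bckdha did not pass. Of the 20 genes 14 passed with each array left out in turn, and all 20 kept their direction in every setting. The 27 other catabolic enzymes called lower became 15 at 0.01 (against 2.53% of all genes), 13 with Y-linked signal (3.09%) and 2 without it (0.203%). They were 23 to 34 with single arrays left out. The 12 genes without overlap became 9 with the deposited scaling, 10 with median centring and 12 to 17 with single arrays left out. They became 18 in the 4 and 4 livers with Y-linked signal and 30 in the 2 and 2 without it, where fewer values have to separate. The share of all genes without overlap was not counted under these settings. The interaction with Y-linked signal called 0 to 7 genes with single arrays left out (7 without HCC 6 and 1 without HCC 2), and 0 with a pseudocount of 1 or the deposited scaling. Signs turned only in genes not past the test: Got1 was 0.19 with Y-linked signal, Nags 0.018 without it, and Qprt ran from -0.35 to 0.052 with single arrays left out, above 0 only without HCC 4, against -0.67, -0.14 and -0.16. The cause of these changes was otherwise not tested. The counts of genes below all normal livers in each tumour stayed within 1.5 times with the deposited scaling.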
